A study of Oryctolagus cuniculus with 3 samples.

Results

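The genes described here are the transforming growth factor beta (TGF-beta) ligands, their receptors, the latent TGF-beta binding proteins and the TGF-beta-induced gene TGFBI, measured by RNA sequencing in RCE1(5T5), a rabbit corneal epithelial cell line. The genes were taken by name, and the tables list 8 of the 10 names asked for among 20536 gene names: TGFB1, TGFB2, TGFB3, TGFBR1, TGFBR2, LTBP1, LTBP2 and TGFBI. The other 2, LTBP3 and LTBP4, are filed under LOC numbers and were identified by their RefSeq gene IDs, so their values are given but they are not counted among the 8. There was 1 library for each of 3 stages in culture: day 4 (non-differentiated), day 6 (committed) and day 10 (terminally differentiated). All 3 came from the same line, which was grown on a feeder layer of 3T3 mouse fibroblasts treated with mitomycin C, in medium with 5% fetal calf serum and 10 ng/ml epidermal growth factor. The feeder cells were removed with EDTA before RNA was extracted. No genotype differs between the stages, and stage, day and library cannot be told apart.

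TGF-beta is made as a precursor whose propeptide stays bound to the ligand and keeps it inactive. In most cells this latent complex is linked to an LTBP, which anchors it to fibrillin and fibronectin in the matrix until integrins, thrombospondin or proteases free the ligand. Free ligand joins TGFBR2 with TGFBR1, which phosphorylates SMAD2 and SMAD3. In the cornea TGF-beta is known for slowing the growth of epithelial cells and for driving scarring in the stroma. TGFBI, a secreted matrix protein that binds collagens and integrins, was named for its induction by TGF-beta, and mutations of the human gene cause several corneal dystrophies.

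The libraries of days 4, 6 and 10 held 10171693, 12582706 and 10899578 fragments. Levels are scaled counts per 1e6 fragments (CPM). Measured genes are the 12818 with 1 CPM or more in some library; all 8 genes, LTBP3 and LTBP4 are among them. Rose and fell are used of a difference in log2(CPM + 1) of 1 or more, that is 2-fold. Folds are ratios of CPM, later over earlier stage unless a fall is named, with exact 95% counting intervals in brackets. With 1 library per stage no difference has a replicate check, no test was run, and the intervals cover counting error only. The 13 matched corneal epithelial markers summed to 19273, 30578 and 22779 CPM on days 4, 6 and 10, of which KRT5, a keratin of basal epithelial cells in general, made up 15650, 23374 and 13552 CPM. Of these 13, 8 rose and 0 fell by day 6, 6 rose and 1 fell after it, and 7 rose and 0 fell over the course (shares of all genes are given below). Markers closer to the cornea were lower on day 4 than later. The corneal keratin KRT12 was at 0, 19.3 and 121 CPM, and its partner KRT3 at 150, 954 and 2018 CPM. The eye transcription factor PAX6 was at 42.2, 127 and 358 CPM. The general epithelial markers CDH1 (291, 209 and 155 CPM) and EPCAM (127, 95.1 and 95.3 CPM) were highest on day 4, without passing 2-fold.

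Between day 4 and day 6, TGFBI rose and TGFB2 and LTBP2 fell. Thus 1 of the 8 genes rose and 2 fell, where the shares over all measured genes were 8.06% up and 6.73% down. After day 6 none of the 8 rose and 2 fell, LTBP1 and LTBP2, beside 8.25% of all genes up and 7.10% down. LTBP3 rose in that interval. Over the whole course, day 10 against day 4, 1 of the 8 rose (TGFBI) and 3 fell (TGFB2, LTBP1 and LTBP2), where 17.1% of all genes rose and 15.8% fell, and LTBP3 and LTBP4 both rose. The median difference of the 8 genes was -0.18, 0.07 and -0.52 on the log2 scale for the 3 comparisons in that order, and that of all measured genes was 0.00, -0.01 and 0.01. With LTBP3 and LTBP4 included, the median of the 10 genes was -0.09, 0.29 and 0.03, so the lower median of the 8 over the course depended on leaving these genes out. Risers made up 54.5% of all genes called between day 4 and day 6, against 39.3% without the TMM library factors and 25.8% with the deposited TPM, a measure of transcripts that is scaled for coding length and depth. For day 10 against day 4 they made up 52.0%, against 31.9% with TPM.

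**Figure D1:**
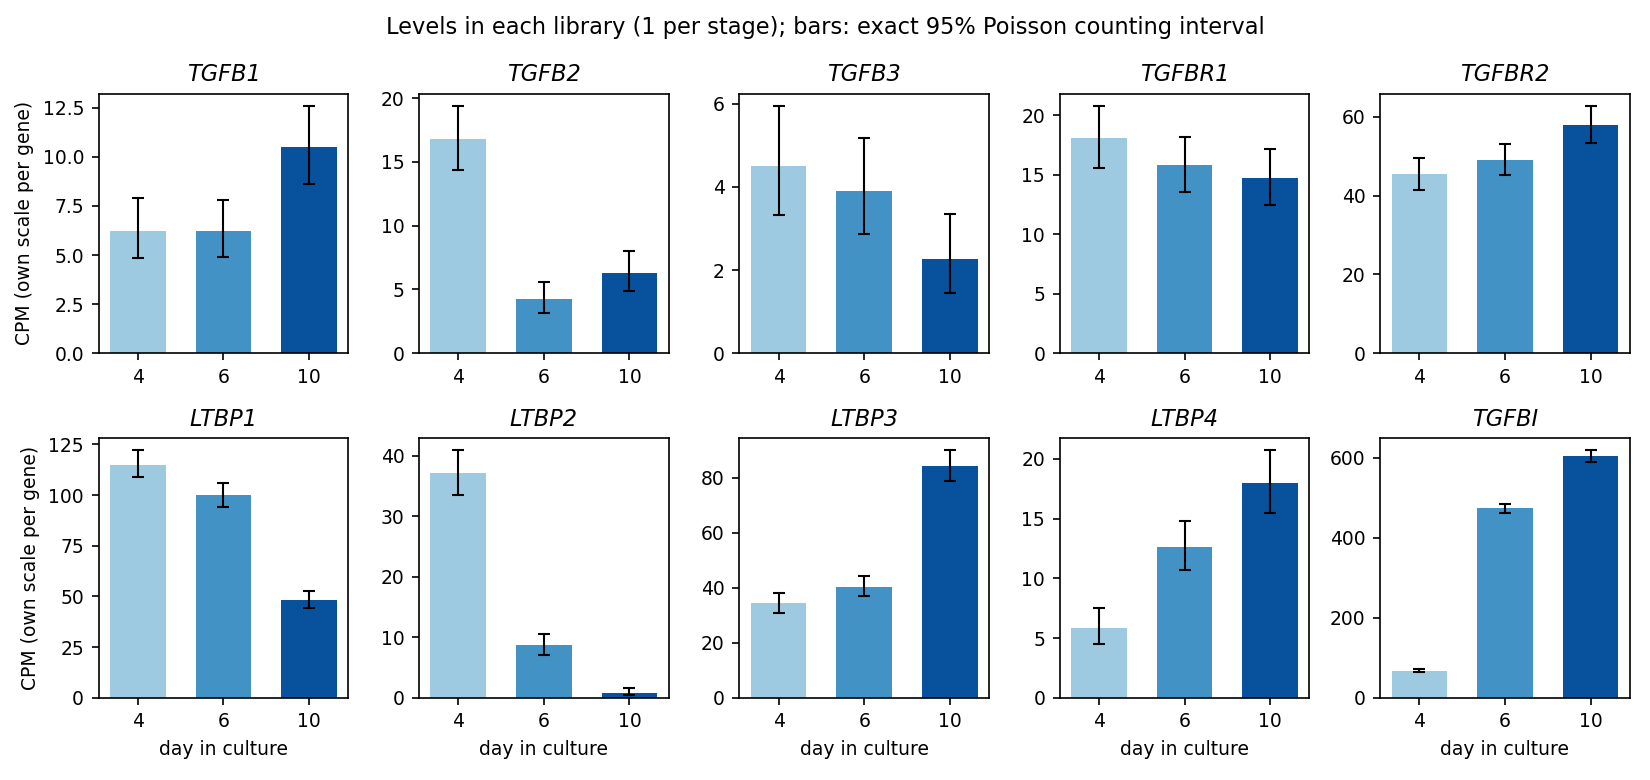
Level of each gene in the library of day 4, day 6 and day 10, in CPM, each panel on its own axis from 0, with the exact 95% Poisson counting interval as error bar. TGFBI stood at 68.1, 473 and 603 CPM, while LTBP2 stood at 37.1, 8.71 and 0.848 CPM.

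TGFB1, the ligand that platelets store in quantity, had 68, 75 and 111 fragments on days 4, 6 and 10, or 6.24, 6.22 and 10.5 CPM. Days 4 and 6 did not differ beyond counting error, and day 10 was the highest. The ratio of day 10 to day 4 was 1.68 [1.23 to 2.3], short of the 2-fold call, and the interval of day 10, 8.6 to 12.6 CPM, did not overlap those of the earlier libraries. TGFB1 has 1 coding sequence in the tables, and its count was fractional before rounding (111.3 fragments on day 10), so some of its fragments were shared with another entry.

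TGFB2, the main ligand of the aqueous humour, was at 16.8, 4.23 and 6.31 CPM on days 4, 6 and 10, from 183, 51 and 67 fragments. The day 4 library was the highest and the later ones lay close together. TGFB2 fell 3.97-fold [2.9 to 5.53] from day 4 to day 6, and only 1.0% of measured genes had a lower difference. On day 10 it was 1.49 times its day 6 level [1.02 to 2.19] and 2.66-fold [2 to 3.58] below day 4. That last call was lost with 5 CPM added before the log, where the log2 difference was -0.95. Both TGFB2 coding sequences fell alike, to 0.25 and 0.253 of their day 4 level by day 6.

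TGFB3, the ligand needed for fusion of the palate, was the lowest of the 3, with 4.5, 3.9 and 2.26 CPM from 49, 47 and 24 fragments. Its day 10 level was 0.503 of day 4 [0.295 to 0.835], which did not pass 2-fold on the scale of log2(CPM + 1), where the difference was -0.75.

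The order of the ligands within a library can be read from the deposited TPM, which divides by coding length. On day 4 TGFB2 led, with 13 TPM against 7.5 TPM for TGFB1 and 2.8 TPM for TGFB3, and it took 55.8% of their summed TPM. On day 6 TGFB1 led with 6.3 TPM, followed by TGFB2 with 2.5 TPM and TGFB3 with 2 TPM. On day 10 TGFB1 held 70.3% of the sum with 11.1 TPM, while TGFB2 held 23.4% with 3.7 TPM and TGFB3 held 6.33% with 1 TPM. The ratio of TGFB1 to TGFB2 within a library was thus 0.577 [0.43 to 0.766] on day 4, 2.52 [1.74 to 3.67] on day 6 and 3 [2.2 to 4.13] on day 10. This ratio does not depend on how libraries were scaled to each other. Its brackets, and those of the other ratios within a library below, are counting intervals of the fragment ratio rescaled to the TPM ratio. The factor between the TPM and fragment ratios of TGFB1 and TGFB2 differed between libraries, so these brackets are approximate. The intervals of day 6 and day 10 overlapped, and that of day 4 lay below both. TGFB2 and TGFB3 on day 6 were close, at 51 and 47 fragments. The summed ligand TPM was 23.3 on day 4, 10.8 on day 6 and 15.8 on day 10.

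**Figure D2:**
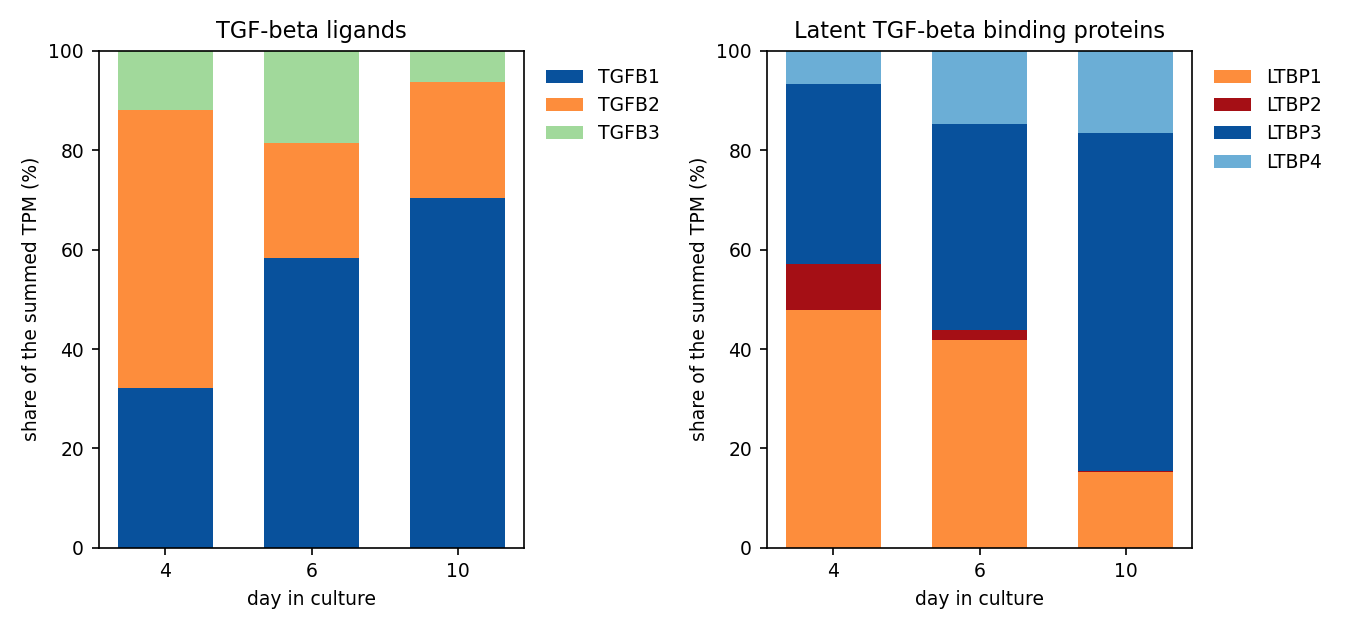
Share of each gene in the summed deposited TPM of its family (%), by day in culture, for the 3 ligands (left) and the 4 latent binding proteins (right). TGFB1 held 32.2%, 58.3% and 70.3% of the ligand sum, and LTBP3 held 36.2%, 41.4% and 68% of the binding protein sum.

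The latent binding proteins moved apart. LTBP1, which covalently binds the latent forms of all the ligands and carries them to fibrillin, was at 115, 99.8 and 48.4 CPM on days 4, 6 and 10 (1254, 1203 and 514 fragments). The first 2 libraries were close and the third was low. LTBP1 fell 2.06-fold [1.86 to 2.29] between day 6 and day 10 and lay 2.38-fold [2.14 to 2.64] below day 4 at the end. The fall after day 6 sat at the 2-fold line, with a log2 difference of -1.03, and was not called with 5 CPM added (-0.97), with the highest coding sequence alone (-0.86) or with TPM (-0.99). Its 6 coding sequences ran between 0.407 and 0.47 of their day 4 level on day 10.

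LTBP2, which binds fibrillin but does not carry latent TGF-beta and whose human gene is mutated in a form of primary congenital glaucoma, had 404, 105 and 9 fragments, or 37.1, 8.71 and 0.848 CPM. It decreased at each step and no interval touched the next. The fall was 4.26-fold [3.43 to 5.33] by day 6 and a further 10.3-fold [5.21 to 23.1] by day 10, and the whole course came to 43.7-fold [22.8 to 96.3]. Only 0.7% of measured genes had a lower difference at the first step and 0.1% at the second. The deposited TPM of LTBP2 was 5, 0.9 and 0.1, with the last value at the smallest step the tables print. With TPM the second fall was not called (log2 difference -0.79). There 1 was added to the TPM before the log, which shrinks a difference between values as low as 0.9 and 0.1.

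LTBP3, which carries latent TGF-beta and whose loss in humans affects teeth and stature, was at 34.4, 40.5 and 84.3 CPM (375, 488 and 895 fragments). The day 10 library stood apart from the earlier ones. LTBP3 rose 2.08-fold [1.86 to 2.33] between day 6 and day 10 and 2.45-fold [2.17 to 2.77] between day 4 and day 10. The first of these calls was lost with 5 CPM added (0.97) and the other with TPM (0.96). LTBP4, known for binding latent TGFB1 and for elastic fibre assembly in the lung, was at 5.87, 12.6 and 18 CPM (64, 152 and 191 fragments) and was highest at the end. On day 6 it was 2.15 times its day 4 level [1.59 to 2.92], just under the call with a log2 difference of 0.99, and it rose 3.06-fold [2.3 to 4.13] between day 4 and day 10.

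By TPM, LTBP1 led the family on day 4 with 25.9 TPM, followed by LTBP3 with 19.6 TPM. On day 6 LTBP1 and LTBP3 did not differ beyond counting error, at 18.4 and 18.2 TPM. On day 10 LTBP3 led with 39.1 TPM, ahead of LTBP4 with 9.5 TPM and LTBP1 with 8.8 TPM. The ratio of LTBP3 to LTBP1 within a library was 0.757 [0.673 to 0.85], 0.989 [0.889 to 1.1] and 4.44 [3.98 to 4.96] on days 4, 6 and 10. The summed TPM of the 4 genes was 54.1, 44 and 57.5, so the makeup of the family shifted more than its total.

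Neither receptor passed 2-fold in any comparison. TGFBR1, the type I kinase that signals to the SMADs, was at 18.1, 15.8 and 14.7 CPM from 197, 190 and 156 fragments, and the intervals of all 3 libraries overlapped. TGFBR2, the type II kinase that binds the ligand first, was at 45.4, 49.1 and 58 CPM from 495, 592 and 616 fragments. Its day 10 level was 1.28 times day 4 [1.13 to 1.44], above counting error and well under 2-fold. With TPM the differences between day 10 and day 4 were -0.66 for TGFBR1 and 0.00 for TGFBR2 on the log2 scale. The small difference of TGFBR2 between day 6 and day 4, 0.11 on the log2 scale, turned to -0.05 without TMM factors and -0.19 with TPM. Per coding length TGFBR2 exceeded TGFBR1 in every library, and the ratio of TGFBR1 to TGFBR2 was 0.511 [0.431 to 0.604], 0.385 [0.325 to 0.454] and 0.31 [0.258 to 0.37] on days 4, 6 and 10.

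TGFBI was the most abundant gene of the set by TPM in every library and showed the largest rise among them. It had 742, 5703 and 6405 fragments on days 4, 6 and 10, or 68.1, 473 and 603 CPM. Day 4 stood far below the other libraries. TGFBI rose 6.95-fold [6.43 to 7.51] between day 4 and day 6, more than 99.6% of measured genes, and 8.86-fold [8.21 to 9.57] between day 4 and day 10. Between day 6 and day 10 it was at 1.28 times its level [1.23 to 1.32], so most of the difference lay before day 6. Its TPM was 33.3, 181 and 226, which placed it at rank 3674, 716 and 545 of all gene names. The 4 coding sequences filed under TGFBI ran between 6.8 and 7.28 times their day 4 level on day 6. Coding sequences of 1 gene share fragments and are not replicates.

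**Figure D3:**
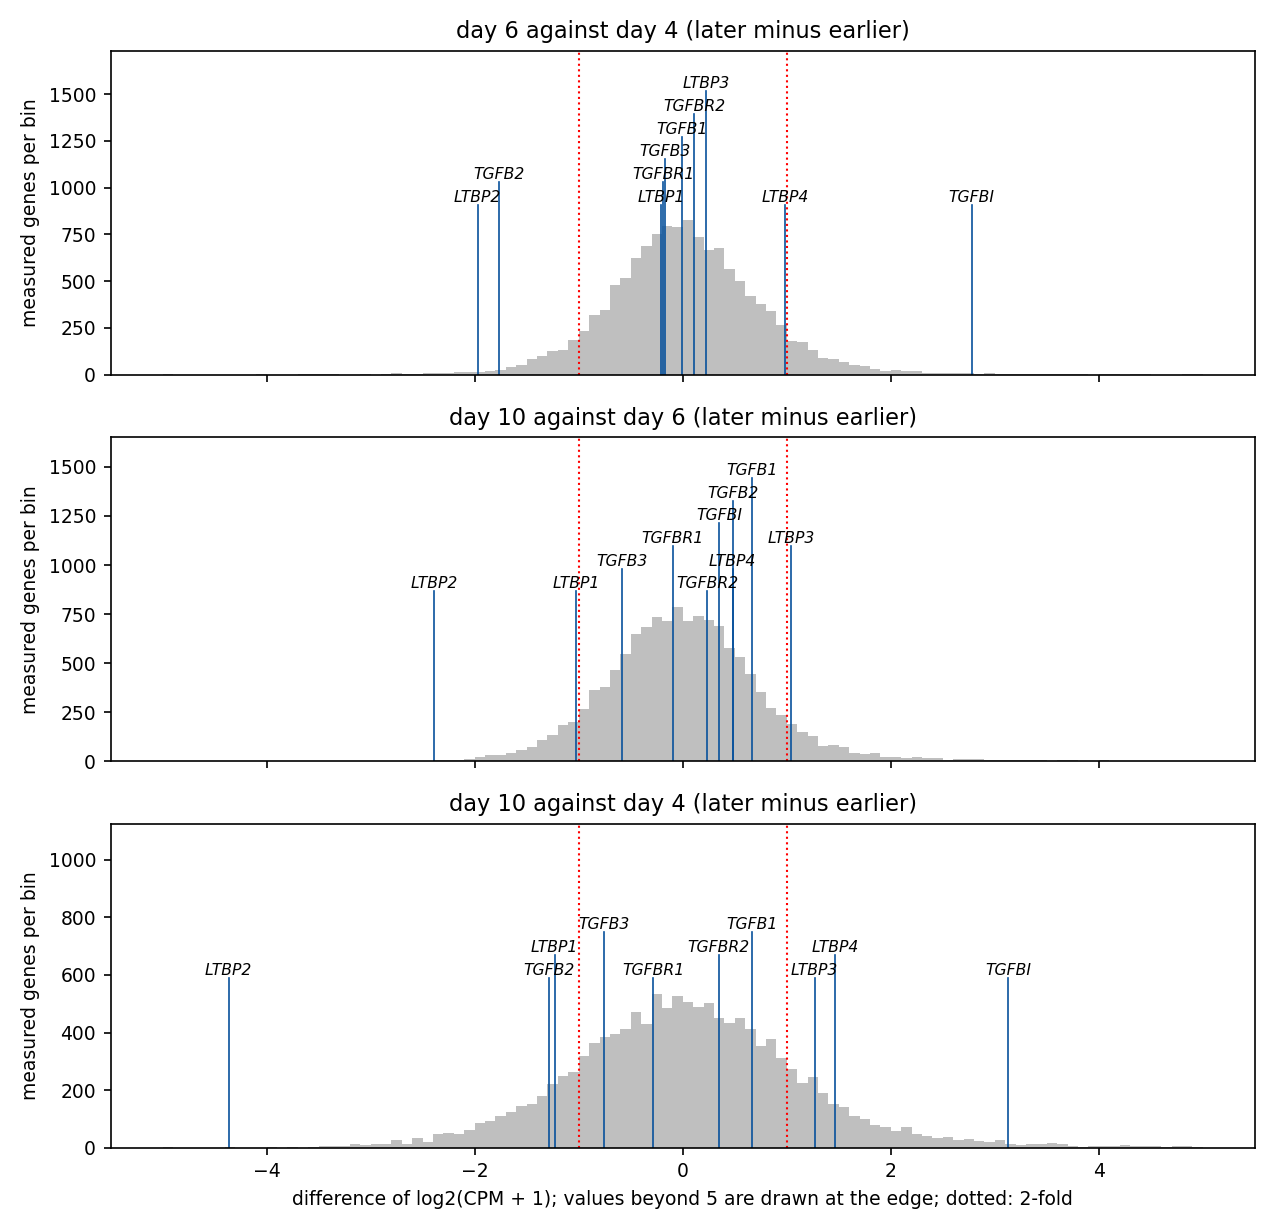
Distribution of the log2(CPM + 1) differences of the 12818 measured genes (grey, bins of 0.1) for each pair of stages, later minus earlier, with the 10 genes marked and the 2-fold lines dotted. TGFBI lies at 2.78 and LTBP2 at -1.97 in the first panel, and the receptors lie near 0 in all panels.

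Few genes lay near TGFBI by a distance that counts the size of the differences over the 3 libraries as well as their course. Among 8317 named genes with at least 10 CPM in 1 library, the 5 nearest by Euclidean distance of centred log2(CPM + 1) were RNF122, a ubiquitin ligase, at 0.102, IL18BP, the decoy receptor of interleukin 18, at 0.135, IFI35, an interferon-induced protein, at 0.21, ZBTB16, a zinc finger repressor, at 0.247, and BNIP3, a mitophagy receptor, at 0.249. Only 5 genes lay within 0.25. IL18BP, for example, was at 5.41, 37.8 and 53.6 CPM. RNF122 and ZBTB16 had only 22 and 9 fragments on day 4, and their CPM ratios of day 6 to day 4 were 10.4 and 11.2, against 6.95 for TGFBI. The 1 CPM added before the log shrinks the differences of genes with such low counts. For TGFB1, whose differences were smaller, 588 genes lay within 0.25, and the nearest were RAB11FIP4, PSENEN, ZNF717, RFXANK and SAR1B. Because size counts in the distance, these numbers of neighbours do not compare how rare the shapes of the courses are. A likeness over 3 libraries describes only the course over these stages.

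Genes that free the ligand from its latent complex included both risers and fallers over the course, with more fallers than risers. Of the 13 measured genes of this list 0 rose and 2 fell between day 4 and day 6, 3 rose and 2 fell between day 6 and day 10, and 2 rose and 5 fell over the whole course (medians -0.20, -0.21 and -0.16); with TPM 4 fell by day 6. The shares of all measured genes that rose and fell were 8.06% and 6.73%, 8.25% and 7.10%, and 17.1% and 15.8% in these comparisons. They are the background for the lists that follow too, but only for the main setting. Risers and fallers among all genes by day 6 were 1033 and 863 in that setting. They were 787 and 1217 without TMM factors and 567 and 1634 with TPM, so list fallers there have a higher background. The integrin chains ITGB6 and ITGB8, which pair with ITGAV to pull latent TGF-beta open, were at 17.3, 20.7 and 54.5 CPM and at 14.3, 20 and 69.8 CPM on days 4, 6 and 10. Both were highest on day 10: ITGB6 rose 2.64-fold [2.27 to 3.08] after day 6 and ITGB8 rose 3.49-fold [3.02 to 4.05]. ITGAV itself was at 86.1, 50.7 and 107 CPM. THBS1, a thrombospondin that activates latent TGF-beta, went the other way with 4508, 433 and 56 fragments, a fall of 78.4-fold [60.3 to 104] over the course. PLAUR, the urokinase receptor, fell 7.41-fold [6.39 to 8.63] by day 6, and MMP9, a gelatinase, fell 3.55-fold [2.41 to 5.37] after it.

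Of 12 measured genes of fibrillin microfibrils and elastic fibres, to which the LTBPs attach, 0 rose in any comparison and 2, 4 and 8 fell (day 6 against day 4, day 10 against day 6, day 10 against day 4). Their medians were -0.55, -0.69 and -1.17. FBN1, the main fibrillin, was at 366, 165 and 153 CPM and fell 2.39-fold [2.25 to 2.53] by day 10. FBLN5, an elastic fibre organiser, fell 40.9-fold [18.5 to 113] over the course, and LOX, a crosslinking oxidase, 4.92-fold [4.29 to 5.67]. With TPM or without TMM factors 5 of these genes fell at the first step in place of 2. Among co-receptors and antagonists 2 of 10 rose and 5 fell by day 6 (median -0.77). TGFBR3, the co-receptor betaglycan, rose 2.55-fold [2.09 to 3.13] after day 6, while the follistatin FST fell 5.25-fold [4.48 to 6.19] and the proteoglycan BGN fell 2.73-fold [2.53 to 2.93] before it. Between day 6 and day 10, 1 of the 10 rose and 1 fell, and over the course 2 rose and 5 fell (1 rose with TPM).

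The SMADs that carry the signal showed no call in any comparison. SMAD2 was at 47.7, 51.3 and 59.7 CPM, SMAD3 at 36.3, 24.5 and 34.2 CPM, and the shared partner SMAD4 at 58.2, 55.3 and 57.4 CPM. Of 16 measured SMADs and regulators 1 rose and 5 fell by day 6 (0 and 6 without TMM factors and with TPM), 2 rose and 0 fell between day 6 and day 10, and 1 rose and 1 fell over the course (2 fell with TPM). The medians were -0.48, 0.29 and -0.06. The inhibitory SMAD7, itself induced by TGF-beta, had few fragments (76, 27 and 44) and fell 3.11-fold [1.98 to 5.03] by day 6. The corepressor SKIL had 135, 41 and 259 fragments: it fell 3.64-fold [2.55 to 5.3] and then rose 7.17-fold [5.15 to 10.2]. ZFYVE9, which brings SMAD2 to the receptor, rose 4.03-fold [3.39 to 4.8] over the course.

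Among genes that TGF-beta is known to induce or repress, more fell than rose by day 6, when TGFBI was high. In the main setting most passed in neither direction. Induced and repressed genes were not split, so the counts have no single direction relative to TGF-beta. This list, which holds TGFBI and LTBP2, had 33 measured genes. Of these, 2 rose and 12 fell between day 4 and day 6, with a median of -0.79. The 12 became 15 without TMM factors and 20 with TPM. Fallers among all genes went from 863 to 1217 and 1634 under these settings. PMEPA1, a feedback inhibitor, was at 19.1, 4.23 and 4.24 CPM and fell 4.51-fold [3.31 to 6.26] by day 6. The matricellular CTGF had 1149, 206 and 694 fragments, with a fall of 6.17-fold [5.32 to 7.19] and then a rise of 3.83-fold [3.27 to 4.49], and CYR61 fell 15-fold [11.5 to 19.9] by day 6. CDKN2B, a cell cycle inhibitor that TGF-beta induces in epithelial cells, was the other riser beside TGFBI, with 4.5, 12.8 and 25.1 CPM and 5.59-fold [4.11 to 7.75] over the course. Between day 6 and day 10, 7 of the 33 rose and 6 fell (3 fell with TPM), with a median of 0.25, and over the course 4 rose and 15 fell (median -0.68). The first 2 comparisons share the day 6 library, so a low day 6 value counts in both.

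**Figure D4:**
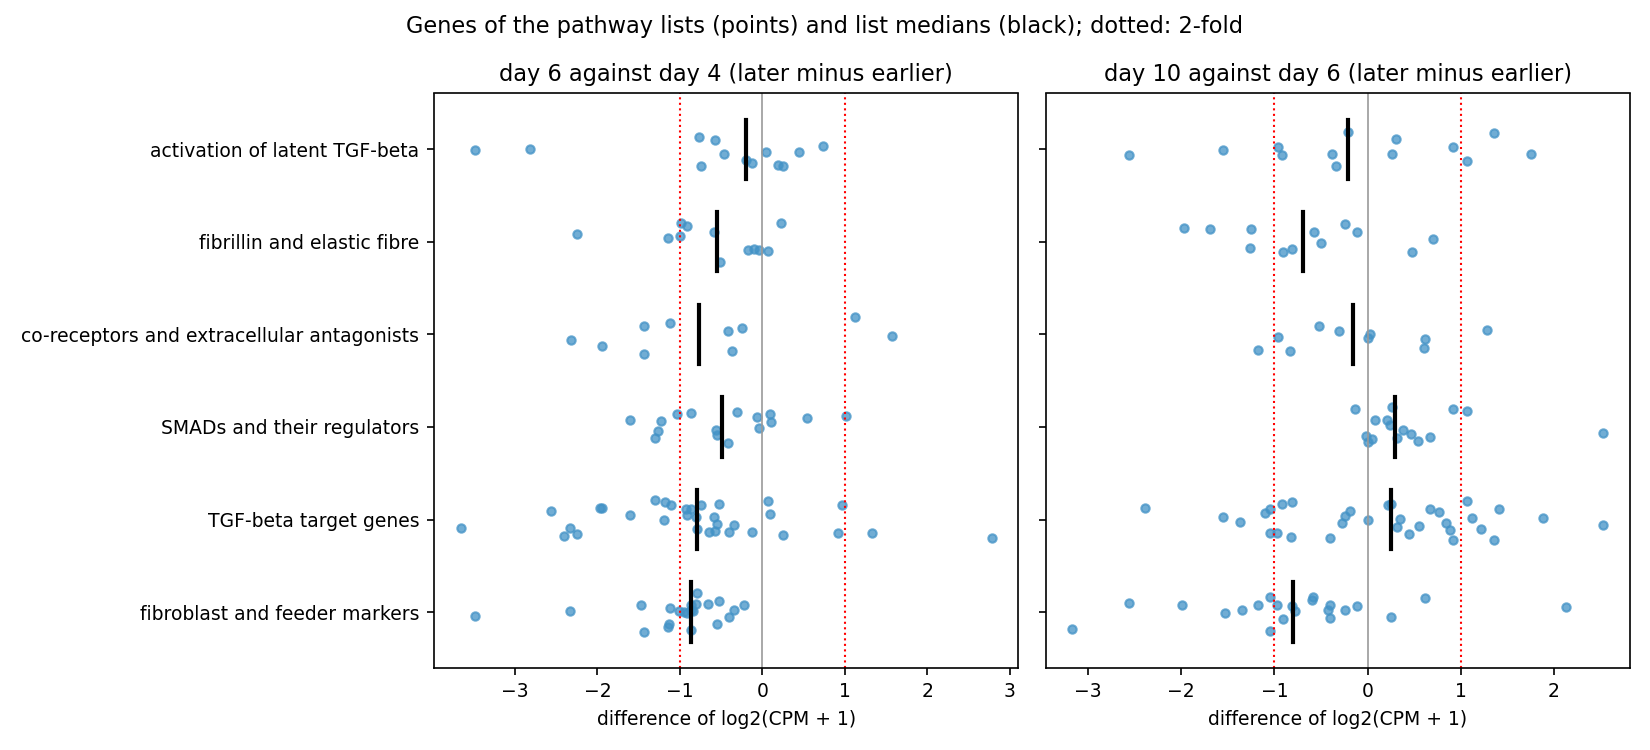
Differences of log2(CPM + 1), later minus earlier, for the measured genes (points) of 5 pathway lists and of the fibroblast and feeder marker list, with the list median in black and the 2-fold lines dotted. The median of the target genes lies at -0.79 on the left and 0.25 on the right, and that of the fibroblast markers at -0.86 and -0.79.

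Markers of fibroblasts declined over the course in which LTBP1 and LTBP2 fell. FBN1 and FN1 are in this marker list as well as in the microfibril list, where 6 of the 10 genes outside the markers fell over the course. Of 25 markers 23 were matched and 22 measured. Their summed levels were 8816, 5406 and 3385 CPM on days 4, 6 and 10, and LUM was at 0 in all 3 libraries. ACTA2 alone made up 2362, 1644 and 1246 CPM of these sums and did not pass 2-fold in any comparison. Of the 22, 0 rose and 8 fell by day 6 (13 without TMM factors, 15 with TPM), 1 rose and 8 fell between day 6 and day 10, and 1 rose and 19 fell over the course. VIM, an intermediate filament gene of mesenchymal cells, was at 1527, 1203 and 581 CPM, COL1A1 at 542, 312 and 265 CPM, COL1A2 at 679, 389 and 198 CPM, and COL3A1 at 617, 420 and 202 CPM. THY1 was the riser, 4.59-fold [3.93 to 5.38] after day 6. On the log2(CPM + 1) scale LTBP2 had a lower difference over the course (-4.37) than 20 of the 22 markers, THBS1 (-6.05) and THBS2 (-4.61) being the exceptions. As a ratio of CPM, THBS2 fell 28.9-fold [22.1 to 38.4], less than the 43.7-fold of LTBP2, which rests on 9 fragments on day 10. TGFBI, LTBP3 and LTBP4 rose as most of the list fell. The part of fibroblast or feeder RNA in the falls of LTBP1, LTBP2 and TGFB2 was not tested, and in bulk RNA fewer cells of a type and less RNA per cell cannot be told apart. Outside the fibroblast markers, 26 of the 33 target genes remained, of which 2 rose and 11 fell by day 6. After day 6 these 26 genes had 7 risers and 4 fallers. From day 4 to day 10 they had 4 risers and 9 fallers, against 4 and 15 in the full list. The middle value of that last comparison was -0.32 for the 26 genes and -0.68 for all 33.

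**Figure D5:**
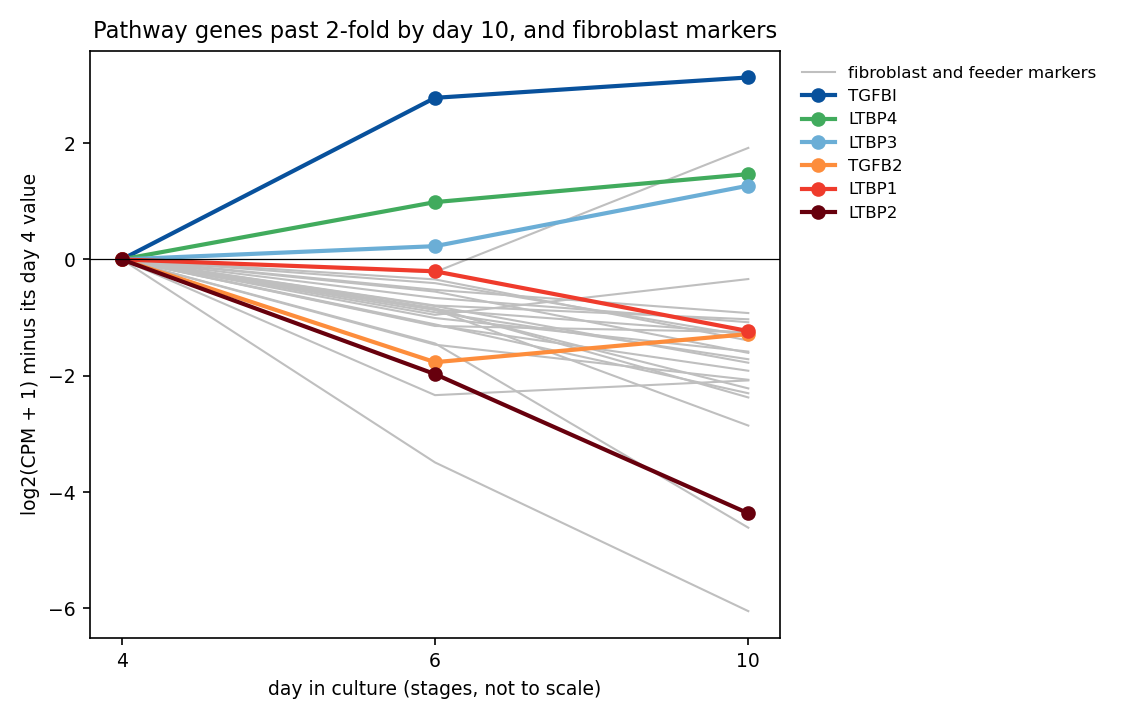
Level relative to day 4, as the difference of log2(CPM + 1), for TGFBI, LTBP4, LTBP3, TGFB2, LTBP1 and LTBP2 (colours) and the 22 measured fibroblast and feeder markers (grey) over the 3 stages. LTBP2 reaches -4.37 and TGFBI 3.13 on day 10, and LTBP1 ends at -1.23 among the markers.

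Keratocyte, endothelial, immune and melanocyte markers each summed to at most 69.6 CPM in any library, and CD68 made up most of the highest sum. The summed level of 6 matched keratocyte markers was 28.3, 10.5 and 4.9 CPM on days 4, 6 and 10, with KERA and LUM at 0 throughout, and of the 3 measured 0 rose and 2 fell over the course. The 8 endothelial markers summed to 10.2, 12.7 and 12.5 CPM with PECAM1 at 0, and of 5 measured 2 rose and 1 fell. The 9 immune markers summed to 8.08, 27.1 and 69.6 CPM, with TYROBP, FCER1G, CD3E and ITGAM among those at 0 throughout and CD68 as the 1 riser of 2 measured. CD68, a lysosomal protein abundant in macrophages, was at 5.6, 25 and 68 CPM and rose 12.1-fold [9.35 to 16] over the course, and on day 10 its 51.9 TPM exceeded that of 84.6% of measured genes. The 6 melanocyte markers summed to 4.13, 9.04 and 31.6 CPM, with MLANA, TYR and DCT at 0 throughout and PMEL as the 1 riser of 2 measured.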

How the data were processed

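RNA of 3 RCE1(5T5) libraries, 1 per stage, had been prepared with Trizol and an Illumina TruSeq kit, per the labels' protocols. Per the file headers, the authors counted fragments and reads over 38696 coding sequences before deposit, and the deposited values are expected counts, many of them fractional. They also deposited a raw transcript count (a coverage signal), FPKM, RPKM and TPM; of these only TPM was used here. The submitters' processing notes name OryCun2.0 as build. The sources used here do not give aligner, counter or strand setting, so antisense and overlapping genes cannot be told apart. Deposited fragments were summed per gene name and rounded. The design had assumed no test, as there is 1 library per stage. CPM used TMM factors of edgeR 4.0.16 (R 4.3.3). Intervals are exact Poisson for levels and Clopper-Pearson for ratios (scipy 1.17.1); 3 fragments are 0.275, 0.249 and 0.283 CPM on days 4, 6 and 10. Scripts were tested on simulated data. Of 5185 LOC names, 671 took a RefSeq symbol (table of assembly mOryCun1.1, used for names only).

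The genes, lists and rules were chosen with earlier results of these data known. Named were the genes asked for; up to 3 top risers and 3 top fallers of each list over the course, where 2-fold in any pair; fixed genes such as THBS1 and the SMADs; and the 5 genes nearest to TGFBI and to TGFB1. Some of these are given only in counts. KRT5, PAX6, CDH1, EPCAM, COL17A1, ACTA2 and the markers listed at 0 lay outside this rule and were named after their values were seen. Alternatives were other scalings (none, DESeq2 1.42.0 size factors, TPM), pseudocounts, filters, fold thresholds and the highest coding sequence alone.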

Additional observations from a re-analysis of the deposited data

How the results depend on the processing

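No paired analysis was possible because each stage has 1 library. No called difference of the 10 genes changed sign under any alternative run. TGFBI rose and LTBP2 fell in day 10 against day 4 under every alternative run at 2-fold, with log2 differences between 2.72 and 3.15 and between -5.29 and -2.45. Calls of the 8 genes moved as follows. The cause was not tested, apart from the 1 added to the low TPM of LTBP2, described above. At 4-fold, 0 fell on day 6 against day 4, 1 on day 10 against day 6 and 1 on day 10 against day 4. At 1.5-fold, 1 rose on day 10 against day 6 and 2 on day 10 against day 4. On day 10 against day 6, 1 fell with a pseudocount of 5 CPM, 1 with the highest coding sequence alone, 0 with TPM and 3 at 1.5-fold, where 2 fell under the other alternatives run at 2-fold. LTBP4 on day 6 against day 4 passed 2-fold with a pseudocount of 0.1 CPM (1.09) and with the highest coding sequence alone (1.00). LTBP4 has only 1 coding sequence, so the second change came from the library totals and TMM factors recomputed for that setting.

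Of all measured genes, 1033 rose and 863 fell on day 6 against day 4, 1058 and 910 on day 10 against day 6, and 2190 and 2024 on day 10 against day 4. In that order these counts were 472 and 451, 562 and 452, and 1324 and 1319 with a pseudocount of 5 CPM; 2510 and 2310, 2449 and 2458, and 3715 and 3542 at 1.5-fold; and 151 and 86, 215 and 32, and 603 and 396 at 4-fold. With TPM, 567 rose and 1634 fell on day 6 against day 4, and 1388 rose and 2958 fell on day 10 against day 4. Without TMM factors, 787 rose and 1217 fell on day 6 against day 4. The median of all genes shifted to -0.14 and -0.11 without TMM factors and to -0.30 and -0.31 with TPM, on day 6 and on day 10 against day 4. Of 780 list counts 162 moved by over 1.5 times. Low depth limits TGFB3 and LTBP2, with 24 and 9 fragments on day 10.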

Other observations

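Activins, the relatives of TGF-beta that use the same SMADs, declined over the course. INHBA, the activin A subunit, was at 41.8, 11 and 5.46 CPM on days 4, 6 and 10 and fell 7.66-fold [5.82 to 10.3] between day 4 and day 10. INHBB was at 5.69, 2.74 and 0.942 CPM and fell 6.04-fold [3.07 to 13.2]. The activin receptor ACVR1B stood apart from them, with 79, 283 and 199 fragments and a rise of 3.24-fold [2.51 to 4.21] by day 6. BMP6, with 13, 52 and 43 fragments, rose 3.39-fold [1.79 to 6.88] over the course. The list of wider superfamily ligands had 8 measured genes, among them BMP1, which is a protease despite its name. Of these 8, 1 rose and 3 fell over the course, 1 rose and 1 fell by day 6 (0 and 3 with TPM), and 0 rose and 1 fell after it.

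Genes of human corneal dystrophies and binding partners of TGFBI split in the same libraries. Of 15 measured 3 rose and 3 fell by day 6 (5 fell without TMM factors, 6 with TPM), 2 rose and 4 fell between day 6 and day 10, and 3 rose and 7 fell over the course. Of the 15, 4 are also in the fibroblast marker list (COL6A1, COL6A2, COL6A3 and DCN) and all 4 fell over the course; among the other 11 genes 3 rose and 3 fell. The risers over the course were TGFBI and the corneal keratins KRT3 and KRT12. The collagen VI chain COL6A2, a partner of TGFBI in matrix, fell 7.41-fold [6.67 to 8.23], whereas COL17A1 was at 2332, 2411 and 3062 CPM. Mutations of KRT3, KRT12 and TGFBI each cause an epithelial or stromal dystrophy in humans.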
